A study of Macaca fascicularis with 11 samples.

Results

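The genes described here are VGLL1 (ENSMFAG00000035875), PPARG (ENSMFAG00000034317), XAGE3 (ENSMFAG00000030451), PAGE4 (ENSMFAG00000039425) and CCNE1 (ENSMFAG00000041278), 5 of the 19367 genes in the count matrices of cynomolgus monkey embryos. They were chosen by symbol as genes of the cytotrophoblast, and each symbol was matched to its Ensembl identifier through gene tables that the study supplied with its paper. Those tables list them among the genes that marked trophoblast in wild-type Day 14 embryos, so the contrast of trophoblast with other cells in that group is given as a description, without a test. Single-cell RNA sequencing by 10x Genomics droplets was carried out on wild-type embryos and ISL1 mutants on Days 10, 12 and 14 of culture. The mutants, called hypomorphic in the labels, were made by injecting zygotes with SpCas9 and guide RNAs against ISL1, so they are mosaic, and the wild-type embryos carry no such edit. All embryos of both genotypes were thawed as blastocysts and grown in vitro without a uterus. Wild type comprised 12 embryos in 6 libraries, which pooled 2 and 3 embryos on Day 10, 1 and 2 embryos on Day 12 and 2 embryos each on Day 14. The mutants comprised 11 embryos in 5 libraries, with a single library of 3 embryos at Day 10 and, on each later day, a library of 3 embryos and another of 1 embryo. The labels place the libraries of each group in batches B1 and B2, here the first and the second library, and mutant Day 10 has B1 only. The library is the replicate throughout. In comparisons of days or genotypes within a cell type, p-values measure the spread between libraries, some of which held 1 embryo. In comparisons between cell types, also those within the trophoblast, the library was a block. Their p-values measure the spread that remains within libraries, pooled over the groups.

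VGLL1 is a cofactor that binds TEAD transcription factors, the DNA-binding partners of the Hippo pathway, and it is known as a marker of human villous cytotrophoblast. PPARG is a nuclear receptor of fatty acid metabolism that placental development requires in the mouse. XAGE3 and PAGE4 are X-linked members of the GAGE-related cancer-testis families, both known for their expression in placenta. CCNE1 encodes cyclin E1, which activates CDK2 at the entry into S phase and is also used by endoreplicating trophoblast. The cytotrophoblast is the proliferating epithelial layer of the placenta, from which the hormone-secreting syncytiotrophoblast and the invasive extravillous trophoblast arise. The amnion, an epithelium that forms from the epiblast, shares several transcription factors with trophoblast, which is why the 2 tissues were compared directly here.

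The matrices held 33330 cells, with 36654977 to 164808415 UMIs per library and median UMIs per cell from 10916 to 142180. The medians were 10916 to 23378 in the mutant libraries of Days 12 and 14, 99406 in that of mutant Day 10 and 24720 to 142180 in wild type. Depth thus went with genotype on the later days. Cells were clustered at each day with the 5 genes and the related gene lists left out, and clusters were named from markers. There were 20699 trophoblast-like cells, 359 amnion-like cells, 2123 other epiblast-derived cells, 489 endoderm-like cells and 6541 cells like extraembryonic mesenchyme, while 3119 cells were left unnamed. All 10 trophoblast markers were detected in the trophoblast-like cells of every library, with a summed level of 6688 to 16998 CPM, the UMIs of a gene scaled to an equal total in every sum. Amnion-like cells numbered at least 5 in 8 libraries, and there 5 to 9 of the 9 amnion markers were detected. These markers summed to 192 CPM in wild-type Day 10 and to 542 to 1458 CPM in the other groups. The 192 CPM lay above the 56.5 to 83.2 CPM of other epiblast-derived cells of that group. It lay below the 628 CPM of the 10 trophoblast markers in the same amnion-like cells. The name is thus weakly borne out in wild-type Day 10. The reads lie at the 3′ end of transcripts and do not test an edit of ISL1. Its level in amnion-like cells was 12.3 to 150 CPM in wild type and 119 to 214 CPM in the mutants, with values from 4 of the 5 mutant libraries, since the first of mutant Day 12 had only 2 such cells. ISL1 is itself among the 9 markers that named these cells, so its level there is partly fixed by the naming. Clusters whose leading genes belonged to another class were set aside, which removed 40.8% of the cells in trophoblast clusters of wild-type Day 10 and 1.03% to 8.70% in the other groups. Of the cells in amnion clusters it removed 61.9% in wild-type Day 12, 54.3% in mutant Day 12 and 57.3% in mutant Day 14, and 0% to 3.13% in the others. Epiblast-derived clusters with at least 2 trophoblast markers among their 10 leading genes were left unnamed as well. Low levels of trophoblast transcripts in amnion-like and other epiblast-derived cells may thus be partly built in by the naming. Scrublet marked 555 cells as possible doublets, 1.67% of all cells, and 249 cells carried a barcode that also occurred in another library. Cell types were rebuilt here, and a difference from the study may come from these names.

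At every stage and in both genotypes the 5 genes were higher in trophoblast than in the mean of the other lineages, although PAGE4 in endoderm-like cells of a wild-type Day 10 library was as high as in trophoblast. Their levels in trophoblast-like cells stood far above those in other epiblast-derived cells of the same library. VGLL1 and XAGE3 transcripts were found in most trophoblast-like cells, whereas PAGE4 was not detected in many of them. CCNE1 was also detected in a large share of the cells of other lineages.

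VGLL1 was at 417 and 262 CPM in the trophoblast-like cells of the 2 wild-type Day 10 libraries, 636 and 672 CPM at Day 12 and 453 and 707 CPM at Day 14. In the mutants it was at 519 CPM at Day 10, 568 and 495 CPM at Day 12 and 415 and 328 CPM at Day 14. The second wild-type Day 10 library was the lowest and the second wild-type Day 14 library the highest, and among the other named types the highest level in any library with at least 5 cells was 97.5 CPM in endoderm-like cells. The cells left unnamed were at 90.5 to 707 CPM. VGLL1 was between 0 and 22.1 CPM in other epiblast-derived cells.

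PPARG kept to the narrowest range of levels relative to its own highest level among the 5 genes. It was at 167 and 215 CPM in wild-type Day 10 trophoblast, 226 and 209 CPM at Day 12 and 256 and 201 CPM at Day 14. In the mutants it was at 221 CPM at Day 10, 217 and 204 CPM at Day 12 and 146 and 129 CPM at Day 14. The 2 mutant Day 14 libraries held the lowest PPARG levels of the 11. The gene reached 5.17 CPM at most in other epiblast-derived cells, with a median of 1.34 CPM over the libraries.

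XAGE3 was at 1366 and 631 CPM in wild-type Day 10 trophoblast, 2134 and 1497 CPM at Day 12 and 1633 and 2222 CPM at Day 14. In the mutants it was at 1768 CPM at Day 10, 1572 and 2105 CPM at Day 12 and 2736 and 3734 CPM at Day 14. PAGE4, its relative, was at 342 and 52.7 CPM in wild-type Day 10, 1066 and 528 CPM at Day 12 and 911 and 684 CPM at Day 14. Both genes were lowest in the second wild-type Day 10 library. In the mutants PAGE4 was at 511 CPM at Day 10, 615 and 874 CPM at Day 12 and 1446 and 1567 CPM at Day 14. Both genes were thus highest in the 2 mutant Day 14 libraries. The counting of reads that fit several members of these families is not known in detail, so the split of reads between near-identical copies is uncertain for both.

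CCNE1 was at 649 and 605 CPM in wild-type Day 10 trophoblast, 1405.5 and 1161 CPM at Day 12 and 1916 and 1132 CPM at Day 14. In the mutants it was at 1400.4 CPM at Day 10, 1718 and 1709.7 CPM at Day 12 and 1159.5 and 1140.0 CPM at Day 14. The 2 wild-type Day 10 libraries held the lowest CCNE1 levels of the 11. In other epiblast-derived cells it ranged from 17.0 to 138 CPM, in endoderm-like cells from 41.5 to 171 CPM and in mesenchyme-like cells from 67.1 to 151 CPM.

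**Figure D1:**
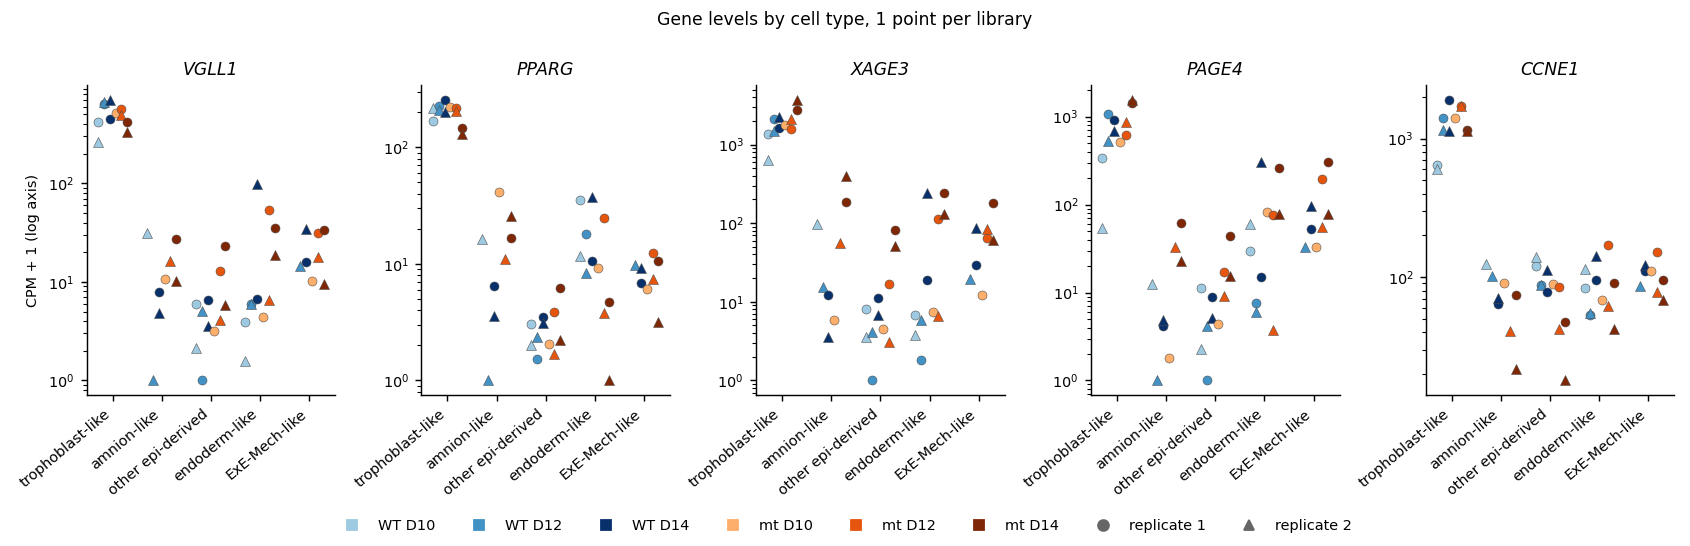
CPM of the 5 genes in each library and cell type with at least 5 cells, on a log axis after adding 1 CPM, with 1 panel per gene. Colours mark the 6 groups of genotype and day and symbols the library within the group. In each panel the trophoblast-like points lie above those of other epiblast-derived cells, and PAGE4 in endoderm-like cells comes closest to its trophoblast-like level.

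The share of cells with at least 1 UMI gave the same picture once every cell was thinned to 10000 UMIs and shallower cells were left out, 2689 of them trophoblast-like and 201 other epiblast-derived. VGLL1 was then found in 72.1% to 99.4% of trophoblast-like cells per library, with a median of 95%, and in 0% to 13.7% of other epiblast-derived cells. PPARG was found in 58.6% to 83.3% against 0% to 4.21%, and XAGE3 in 65.2% to 99.6% against 0% to 11.4%. The PAGE4 share was the most variable among trophoblast-like cells, from 13.4% to 85.8% with a median of 71.7%. It was 0% to 11.5% in other epiblast-derived cells. CCNE1 was found in 76.8% to 99.6% of trophoblast-like cells and in 24.2% to 76.3% of other epiblast-derived cells. Unthinned, the shares in trophoblast-like cells ran from 90.7% to 100% for VGLL1, 68.9% to 98.4% for PPARG, 84.1% to 99.7% for XAGE3, 28.4% to 90.5% for PAGE4 and 88.9% to 99.8% for CCNE1. In other epiblast-derived cells they reached 21.6% for VGLL1, 11.5% for PPARG, 31.1% for XAGE3, 37.8% for PAGE4 and 100% for CCNE1. The median depth per library was 12171 to 149325 UMIs in trophoblast-like cells and 8933.5 to 136239.5 UMIs in other epiblast-derived cells.

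Free RNA from lysed trophoblast can reach any droplet, so each gene was set beside CGA, the glycoprotein hormone subunit that trophoblast secretes in bulk, as a percentage of its own level in the trophoblast-like cells of the same library. In other epiblast-derived cells CGA stood at 0% to 5.80% of its trophoblast-like level, with a median of 0.322%. VGLL1, PPARG, XAGE3 and PAGE4 had medians of 0.635%, 0.942%, 0.404% and 0.918% there. CCNE1 had a median of 6.15% and a range of 1.49% to 22.8%. In mesenchyme-like cells the medians were 2.66% for CGA, 3.33% for VGLL1, 3.6% for PPARG, 2.81% for XAGE3, 6.25% for PAGE4 and 7.58% for CCNE1. In other epiblast-derived cells the highest percentages were 5.33% for VGLL1, 3.54% for PPARG, 2.97% for XAGE3 and 3.01% for PAGE4, all below the highest of CGA, and that of CCNE1 lay above it. Within a library VGLL1 exceeded the CGA percentage in 7 of 11 libraries, PPARG in 6, XAGE3 and PAGE4 in 5 each and CCNE1 in 9. The free-RNA correction of the matrices had itself been set on choriogonadotropin in epiblast cells, so CGA is no independent measure of free RNA there, and whether these low levels are free RNA was not tested.

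PAGE4 stood out in mesenchyme-like and endoderm-like cells. In mesenchyme-like cells it was at 31.9 to 303 CPM with a median of 66.2 CPM. It reached 31.6% of its trophoblast-like level at most there, and exceeded the CGA percentage in 8 of 8 libraries. In endoderm-like cells PAGE4 ranged from 2.77 to 305 CPM with a median of 59.5 CPM, and CGA reached 14.6% at most in any library. In the second wild-type Day 10 library, PAGE4 in endoderm-like cells reached 113% of its low level in trophoblast-like cells. Those transcripts sat in few cells. In that library 106 UMIs were spread over 6 of 21 endoderm-like cells, with 97.2% of them in 3 cells. In the second wild-type Day 14 library 169 UMIs were found in 10 of 35 cells, with 87.0% in 3 cells.

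The 5 genes were compared between trophoblast-like cells and the mean of the other named types present by edgeR's quasi-likelihood test on UMIs summed per library and type, with the library as a block and Benjamini-Hochberg adjustment over the 14606 genes tested. Wild-type Day 10 had no mesenchyme-like cells, so its mean leaves that type out and is not the same comparator as in the other groups. All 5 were higher in trophoblast at a false discovery rate of 1% in each of the 5 groups that the study's gene list did not use. The genes had been chosen with earlier results of these data known, so these groups are no blind test of that choice. The cells of both genotypes were also clustered together at each day. Among all genes, 13.2% were higher in wild-type Day 10, 14.8% in wild-type Day 12, 12.0% in mutant Day 10, 18.4% in mutant Day 12 and 19.9% in mutant Day 14. The median log2 difference of the 5 genes was 4.76 in wild-type Day 10, 6.0 in mutant Day 10, 4.97 in mutant Day 12 and 4.71 in mutant Day 14, against 0.11 to 0.18 over all genes in these groups. Wild-type Day 12 has no such median, since 3 of the genes had no UMI in its amnion-like sum.

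In wild-type Day 10 the log2 difference was 6.06 ± 0.56 (SE) for VGLL1, 4.76 ± 0.42 for PPARG, 6.28 ± 0.73 for XAGE3, 3.31 ± 0.79 for PAGE4 and 2.68 ± 0.27 for CCNE1. PAGE4 had the largest adjusted p of these in edgeR's test, 0.0022, and it did not pass without the first wild-type Day 10 library, where its adjusted p was 0.031, or with the clusters that had been set aside kept, at 2.66 ± 0.81 with adjusted p = 0.013. In mutant Day 14 the 5 differences lay close together, from 4.67 ± 0.50 for XAGE3 to 4.83 ± 0.40 for PPARG. In wild-type Day 14, given without a test, the log2 differences were 5.61 for VGLL1, 5.39 for PPARG, 6.39 for XAGE3, 5.47 for PAGE4 and 4.2 for CCNE1, with 19.4% of all genes higher there.

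Other regulators known from trophoblast separated the tissues in the same comparison. Of 17 transcription factors and cofactors with an identifier, most of which also come from the study's trophoblast genes, 14 were higher in trophoblast of wild-type Day 10, wild-type Day 12 and mutant Day 10 and 13 in mutant Day 12 and mutant Day 14, with medians of 3.31, 3.17, 3.48, 2.81 and 2.52 on the log2 scale. GCM1, which drives syncytiotrophoblast genes, was higher by 6.53 ± 0.41 in wild-type Day 10 and by 5.67 ± 0.33 in mutant Day 14, and GATA2 by 5.39 ± 0.46 and 4.00 ± 0.42. CDX2, an early trophectoderm factor that later marks other lineages, was lower in the trophoblast of every tested group but wild-type Day 10, at −6.90 ± 0.82 in mutant Day 14.

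Genes of the 5 genes' own pathways gave a mixed picture. Among 5 PPARG partners and lipid targets with an identifier, NRIP1, a nuclear receptor corepressor, was higher in trophoblast of every tested group, by 3.52 ± 0.34 in wild-type Day 10. ANGPTL4, a lipase inhibitor and known PPARG target, was higher in mutant Day 12 and mutant Day 14, by 1.32 ± 0.34 and 1.57 ± 0.34. FABP3, a fatty acid carrier, was lower in every tested group, at −1.63 ± 0.43 in wild-type Day 10 and −5.73 ± 0.53 in mutant Day 14. None of 4 TEAD and Hippo genes was higher in any tested group, with medians from −0.35 to 0.60, and WWC2, a scaffold of the pathway, was lower in the 3 mutant groups. None of 4 other X-linked or cancer-testis genes was higher either, and MAGED4B was lower by 2.61 ± 0.32 in mutant Day 14. Of 20 genes of the cell cycle, 3 or 4 were higher in each tested group, among them CDKN1C, a CDK inhibitor that is abundant in trophoblast, and CDK7, the CDK-activating kinase. Between 3 and 6 were lower in each, among them CCND2. Of all genes 12.0% to 19.9% were higher and 5.22% to 12.0% lower in these groups, so the share of the list that was higher lay near that of all genes. The share of the list that was lower lay above that of all genes in each group. The median of these 20 was −0.58 to −0.23, while CCNE1 was higher in all of them.

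Amnion-like cells held little VGLL1, PPARG, XAGE3 or PAGE4 in most libraries, while CCNE1 was at 20.7 to 122 CPM in them, with a median of 71.6 CPM. Clusters led by trophoblast markers could not be named amnion-like, so these low levels may be partly built in. Keeping the clusters that had been set aside does not lift that rule. In the 2 wild-type Day 14 libraries, with 58 and 35 amnion-like cells, VGLL1 was at 6.8 and 3.8 CPM, PPARG at 5.5 and 2.5 CPM, XAGE3 at 11.4 and 2.5 CPM and PAGE4 at 3.2 and 3.8 CPM. In the only usable wild-type Day 12 library, with 8 amnion-like cells, VGLL1, PPARG and PAGE4 had 0 UMIs. A set limit of 3 counts would be 14.4 CPM for each. Over the 8 libraries the median was 2.35% of the trophoblast-like level for VGLL1, 6.02% for PPARG, 1.80% for XAGE3, 0.971% for PAGE4 and 6.25% for CCNE1, beside 0.502% for CGA. The sum of the 10 trophoblast markers in amnion-like cells was 628 CPM in wild-type Day 10, 52.8 CPM in wild-type Day 12, 82.6 to 156 CPM in wild-type Day 14, 445 CPM in mutant Day 10, 266 CPM in mutant Day 12 and 252 to 461 CPM in mutant Day 14.

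**Figure D2:**
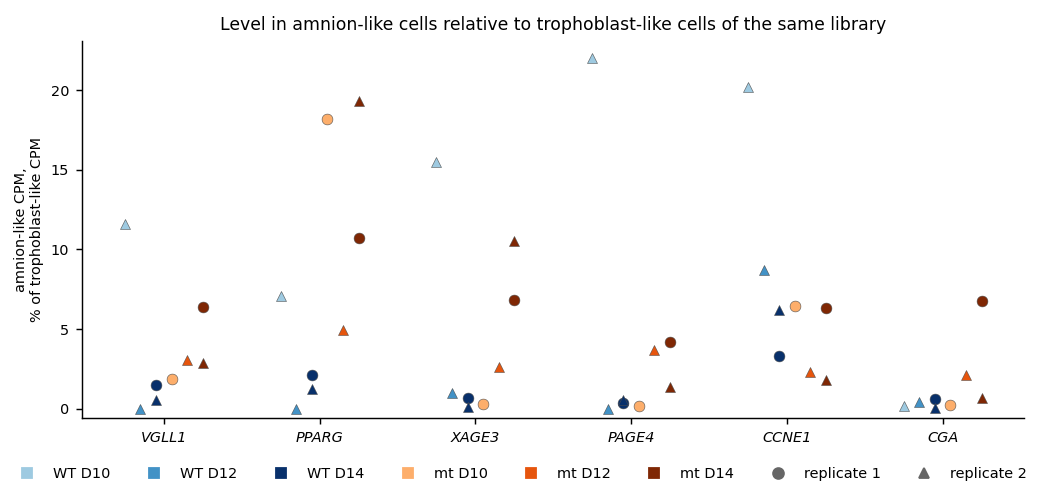
Level in amnion-like cells as a percentage of the level in trophoblast-like cells of the same library, for the 5 genes and for CGA, in the 8 libraries with at least 5 amnion-like cells. Each point is a library, coloured by group. The PPARG points of mutant Day 10 and of the second mutant Day 14 library, 18.2% and 19.3%, and the PAGE4 point of wild-type Day 10, 22.0%, are among those above the highest CGA point, 6.76%.

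Trophoblast-like cells exceeded amnion-like cells for all 5 genes in mutant Day 10 and mutant Day 14, for 4 in wild-type Day 12 and mutant Day 12 and for 2 in wild-type Day 10, by the same edgeR test. In mutant Day 10, mutant Day 12 and the wild-type groups of Days 10 and 12 the amnion-like arm was 1 library, of 16, 93, 10 and 8 cells, whose spread was assumed to be like that of the other sums, and in wild-type Day 12 the calls of VGLL1 and PPARG were against 0 UMIs. The share of all genes higher in trophoblast was 5.4% in mutant Day 10, 11.4% in mutant Day 14, 1.71% in wild-type Day 12, 7.18% in mutant Day 12 and 2.29% in wild-type Day 10. In mutant Day 10 the log2 difference was 6.12 ± 1.07 for VGLL1, 2.83 ± 0.71 for PPARG, 8.89 ± 1.62 for XAGE3, 9.67 ± 2.23 for PAGE4 and 4.33 ± 0.53 for CCNE1. In mutant Day 14 it was 4.87 ± 0.74 for VGLL1, 2.93 ± 0.57 for PPARG, 3.67 ± 0.80 for XAGE3, 5.77 ± 1.06 for PAGE4 and 5.09 ± 0.41 for CCNE1. With 1 mutant Day 14 library in the group, 3 genes passed without the first library and 2 without the second, and XAGE3 passed in neither, with adjusted p = 0.034 and 0.024 in edgeR's test. In mutant Day 12 PAGE4 missed the threshold, at 4.42 ± 1.32 with adjusted p = 0.016. It passed there with no filter on low counts at 4.38 ± 1.15, without the cells marked by Scrublet at 5.72 ± 1.43, at clustering resolution 0.4 at 4.98 ± 1.03 and with the set-aside clusters kept at 4.36 ± 0.96. In wild-type Day 12 PAGE4 also missed it, with adjusted p = 0.048 in edgeR's test, and it passed with DESeq2 and with the set-aside clusters kept, at adjusted p = 0.0013 and 0.0077. The XAGE3 call of wild-type Day 12 was lost without the first library of that group and without the cells marked by Scrublet, with adjusted p = 0.015 and 0.014 from edgeR, and DESeq2 gave PPARG in mutant Day 10 an adjusted p of 0.051. In wild-type Day 14, which was not tested, the differences were 6.66 for VGLL1, 5.86 for PPARG, 7.87 for XAGE3, 8.12 for PAGE4 and 4.78 for CCNE1, with 12.2% of all genes higher.

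In wild-type Day 10 the amnion-like sum rested on 10 cells, whose amnion markers summed to only 192 CPM. A single one of these cells carried most of the trophoblast transcripts. That cell held 35 of the 42 VGLL1 UMIs, 125 of the 135 XAGE3 UMIs and 15 of the 16 PAGE4 UMIs. It was among 4 of the 10 cells that Scrublet marked. PPARG, at 3.68 ± 0.76, and CCNE1, at 2.70 ± 0.48, passed the test there with these cells included, and VGLL1 did not, at 3.08 ± 0.86 with adjusted p = 0.021, but did with no filter on low counts, at 3.22 ± 0.77. Without the marked cells 4 of the 5 genes passed, VGLL1 at 6.71 ± 1.37 and XAGE3 at 9.16 ± 2.08. In the mutant Day 12 library with 93 amnion-like cells, 67 of the 88 XAGE3 UMIs and 31 of the 51 PAGE4 UMIs were likewise in 1 cell, which Scrublet marked.

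Against the other epiblast-derived cells, 1 of the genes passed in amnion-like cells, in mutant Day 10 only. Both sums of that comparison come from 1 library, whose spread was taken from the other groups. The spread between pools of embryos was thus not measured in that group. PPARG was higher in the amnion-like cells of mutant Day 10, by 5.00 ± 0.89 on the log2 scale with adjusted p = 0.0010, where 2.57% of all genes were higher. The gene was at 40.3 CPM there, with 50 UMIs spread over 8 of 16 cells (50.0%, exact 95% interval 24.7% to 75.3%, counting error only) and 13 in the highest of them. None of these cells was marked by Scrublet, but it marked only 0.26% of the 769 cells of that library. Without the highest cell the level was 31.6 CPM. In the same cells VGLL1 was at 9.7 CPM, XAGE3 at 4.8 CPM and PAGE4 at 0.8 CPM. In the other groups the PPARG difference was 3.55 in wild-type Day 10 with adjusted p = 0.073, 0.77 in wild-type Day 14, 2.60 in mutant Day 12 and 2.66 in mutant Day 14 with adjusted p = 0.050, none of which passed. In wild-type Day 12 the amnion-like cells had 0 PPARG UMIs, and no difference is given. Whether the groups differ in this was not tested, and mutant Day 10 has only 1 library.

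None of the other 4 genes passed in any group, with 0.281% of all genes higher in amnion-like cells in wild-type Day 10, 0.00685% in wild-type Day 12, 0.705% in wild-type Day 14, 0.815% in mutant Day 12 and 2.51% in mutant Day 14. At an unadjusted p under 0.05 edgeR's test gave 3 of the 5 genes in wild-type Day 10, 0 in both later wild-type groups, 1 in mutant Day 10 and 2 in each of the later mutant groups. XAGE3 in wild-type Day 10, at 5.04 ± 1.07 with adjusted p = 0.024, was at −1.25 without the cells that Scrublet marked, and passed with no filter on low counts, at 4.84 ± 0.94. In mutant Day 12 XAGE3 passed with the set-aside clusters kept, at 3.87 ± 0.85. CCNE1 had log2 differences from −0.57 to 0.33. Among the 17 transcription factors, 2 were higher in the amnion-like cells of wild-type Day 10, 0 in wild-type Day 12, 3 in wild-type Day 14, 5 in mutant Day 10, 3 in mutant Day 12 and 7 in mutant Day 14. Those of mutant Day 14 included HEY1 by 5.21 ± 0.85, DLX5 by 4.76 ± 0.64, TBX3 by 3.73 ± 0.90 and GATA3 by 3.58 ± 0.62. The median of the 17 in that group was 2.43, beside 0.35 for the 5 genes and −0.01 for all genes.

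Within the trophoblast, clusters named cytotrophoblast-like held 6731 cells, syncytiotrophoblast-like 4434 and extravillous trophoblast-like 3937 in the 8 libraries that had at least 5 of them, while 5595 trophoblast-like cells were in clusters left unnamed. The names rested on 5 of 12 cytotrophoblast, 6 of 10 syncytiotrophoblast and 6 of 13 extravillous markers that could be matched to an identifier. The 5 cytotrophoblast markers are not particular to trophoblast. They summed to 519 to 918 CPM in trophoblast-like cells, 1059 to 2402 CPM in endoderm-like cells and 456 to 2087 CPM in amnion-like cells. In mesenchyme-like cells they summed to 191 to 933 CPM and in other epiblast-derived cells to 346 to 656 CPM. The 5 genes did not behave as 1 group. VGLL1, XAGE3 and PAGE4 were higher in cytotrophoblast-like cells and lower in extravillous-like cells, VGLL1 and XAGE3 were also higher in syncytiotrophoblast-like cells, PPARG was lower in syncytiotrophoblast-like cells, and CCNE1 was lower in cytotrophoblast-like cells.

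In mutant Day 14 VGLL1 was at 668 and 532 CPM in cytotrophoblast-like cells, 436 and 319 CPM in syncytiotrophoblast-like cells and 219 and 158 CPM in extravillous-like cells. In wild-type Day 14 it was at 559.7 and 721 CPM, 532 and 723 CPM, and 287 and 319 CPM. In the 8 libraries with extravillous-like cells VGLL1 was lower there than in the cytotrophoblast-like cells of the same library.

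XAGE3 was at 3928 and 4492 CPM in the cytotrophoblast-like cells of mutant Day 14, 3105 and 4593 CPM in syncytiotrophoblast-like cells and 1521 and 2104 CPM in extravillous-like cells. In wild-type Day 14 it was at 2751 and 2225 CPM, 1959 and 2647 CPM, and 729 and 508 CPM. PAGE4 was at 2869 and 2570.4 CPM in the cytotrophoblast-like cells of mutant Day 14 and at 267 and 324 CPM in extravillous-like cells. Both genes were thus lower in the extravillous-like cells of these 2 libraries. In wild-type Day 14 the PAGE4 level was 1766 and 791 CPM in cytotrophoblast-like cells, 1016 and 519 CPM in syncytiotrophoblast-like cells and 213 and 279 CPM in extravillous-like cells. The order was the same in both genotypes for extravillous-like against cytotrophoblast-like cells, in both libraries of each.

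PPARG was at 240.4 and 219.8 CPM in the cytotrophoblast-like cells of wild-type Day 14, 248 and 171 CPM in syncytiotrophoblast-like cells and 237 and 178 CPM in extravillous-like cells. At Day 10 the syncytiotrophoblast-like level was 93.6 and 188 CPM in wild type, against 215 and 305 CPM in cytotrophoblast-like cells, and 108 against 252 CPM in the mutant. The 2 subtypes lay further apart in each Day 10 library than in either wild-type Day 14 library. CCNE1 was at 1120.0 and 853 CPM in the cytotrophoblast-like cells of wild-type Day 14 and at 2323 and 1499 CPM in syncytiotrophoblast-like cells. In the 2 wild-type Day 10 libraries that order was the other way round, with 795 and 789 CPM in cytotrophoblast-like cells and 476 and 482 CPM in syncytiotrophoblast-like cells.

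**Figure D3:**
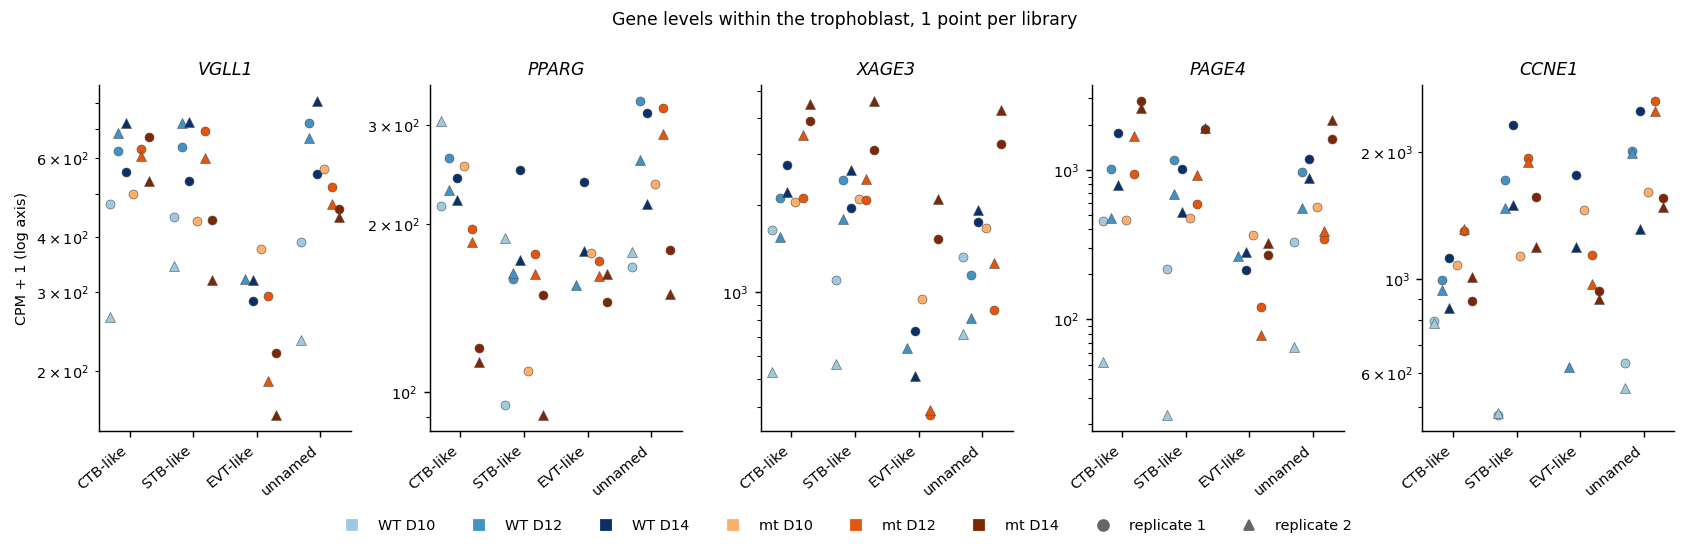
CPM of the 5 genes in cytotrophoblast-like, syncytiotrophoblast-like, extravillous trophoblast-like and unnamed trophoblast clusters, per library on a log axis, with 1 panel per gene. Colours mark the 6 groups and symbols the library. In each of the 8 libraries with extravillous-like points, VGLL1, XAGE3 and PAGE4 are lowest in that column, while the lowest PAGE4 point of all, 21.9 CPM, is the syncytiotrophoblast-like one of the second wild-type Day 10 library, and the PPARG points of the 4 columns overlap.

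Each subtype was tested against the mean of the other trophoblast clusters in 1 fit of the 11 libraries with edgeR's quasi-likelihood test, the library as a block, over 13116 genes. Extravillous-like sums came from 8 of these libraries, none of them of wild-type Day 10. Each difference is pooled over days and genotypes. In cytotrophoblast-like cells PAGE4 was higher by 0.97 ± 0.19 on the log2 scale, XAGE3 by 0.64 ± 0.13 and VGLL1 by 0.30 ± 0.09, CCNE1 was lower, at −0.46 ± 0.12, and PPARG was at −0.00 ± 0.10. That is 3 genes higher and 1 lower, where 28.2% of all genes were higher and 27.4% lower. The VGLL1 call had an adjusted p of 0.0025 and was lost without the second wild-type Day 14 library, without either mutant Day 12 library or without either mutant Day 14 library, at 0.23 to 0.29, and at clustering resolution 0.4, at 0.26 ± 0.10. The CCNE1 call was lost when the clusters that had been set aside were kept, at −0.40 ± 0.14.

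In syncytiotrophoblast-like cells XAGE3 was higher by 0.74 ± 0.13 and VGLL1 by 0.43 ± 0.09, and PPARG was lower, at −0.36 ± 0.11 with adjusted p = 0.0048. Among all genes 19.6% were higher and 21.0% lower. The PPARG call was lost without any 1 of 9 libraries, at −0.35 to −0.28, and stayed without the second wild-type Day 10 library or the first wild-type Day 14 library. It was also lost with no filter on low counts, at clustering resolution 0.4 and with the set-aside clusters kept, at adjusted p = 0.015, 0.014 and 0.043. PAGE4, at 0.49 ± 0.19, and CCNE1, at 0.26 ± 0.11, did not pass, though PAGE4 did without the mutant Day 10 library, at 0.60 ± 0.17, and with the set-aside clusters kept, at 0.62 ± 0.18, and both did at clustering resolution 0.4, at 0.92 ± 0.23 and 0.38 ± 0.07. In extravillous-like cells PAGE4 was lower by a log2 difference of −1.88 ± 0.25, XAGE3 of −1.40 ± 0.16 and VGLL1 of −0.97 ± 0.11, with 27.8% of all genes lower and 29.5% higher. PPARG, at 0.01 ± 0.12, and CCNE1, at −0.28 ± 0.13, did not pass there, but at resolution 0.4 CCNE1 was lower, at −0.53 ± 0.09.

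**Figure D4:**
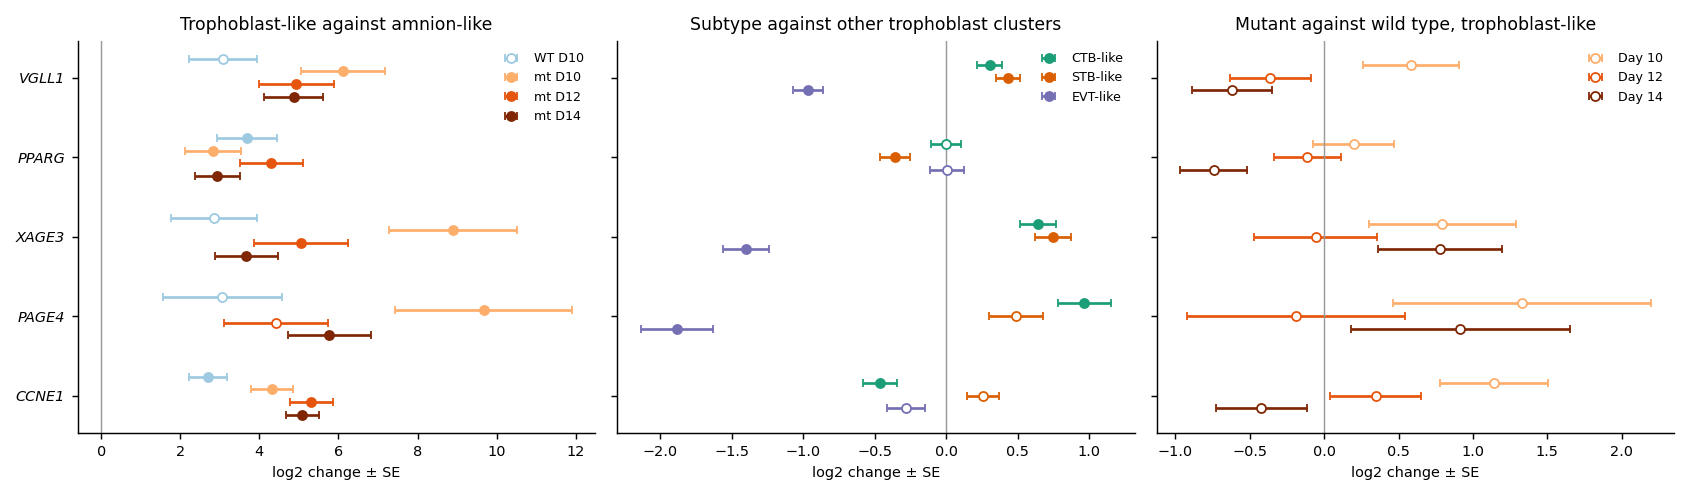
Log2 differences with their standard errors from edgeR for the 5 genes: trophoblast-like against amnion-like cells in wild-type Day 10 and the 3 mutant groups, each subtype against the other trophoblast clusters, and mutant against wild type in trophoblast-like cells at each day. Filled points have an adjusted p under 0.01. The differences between tissues reach 9.67, those between subtypes stay within −1.88 and 0.97, and no genotype point is filled.

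In cytotrophoblast-like cells CCNE1 and most other genes of the cell cycle went opposite ways. There CCNE1 was lower and 17 of 20 other genes of the cell cycle were higher, with a median of 0.93, beside 28.2% of all genes, among them the cyclins CCND1 by 3.41 ± 0.34 and CCNB2 by 1.70 ± 0.16 and the spindle gene ASPM by 1.58 ± 0.18. The 2 that were lower were CDKN1C, at −1.63 ± 0.17, and CDK7. In extravillous-like cells, where CCNE1 did not pass, 17 of the 20 were lower, with a median of −1.68, beside 27.8% of all genes, among them CCNB2 at −2.78 ± 0.25 and MKI67, a marker of cycling cells, at −2.21 ± 0.25. In syncytiotrophoblast-like cells, where CCNE1 did not pass either, 4 were higher and 3 lower, PCLAF being higher by 1.54 ± 0.16, and these shares lay near the 19.6% and 21.0% of all genes.

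Single genes of the VGLL1 and PPARG pathways also differed between subtypes. ANKRD1 and CCN1, well-known targets of YAP and TEAD, were higher in extravillous-like cells by 8.27 ± 0.49 and 2.54 ± 0.20, where VGLL1 was lower. AMOTL1, an angiomotin of the Hippo pathway, was higher in cytotrophoblast-like cells by 0.91 ± 0.14 and lower in extravillous-like cells. Of the 4 genes of this list, 3 were higher and 1 lower in extravillous-like cells, beside 29.5% and 27.8% of all genes. In cytotrophoblast-like cells 1 was higher and 1, ANKRD1, lower, beside 28.2% and 27.4%. In syncytiotrophoblast-like cells 0 were higher and 3, ANKRD1, CCN1 and WWC2, lower, beside 19.6% and 21.0%. Only 4 of the 16 genes of the TEAD and Hippo list had an identifier, and TEAD genes were not among them. Of the PPARG list, SCD, a fatty acid desaturase, was higher in cytotrophoblast-like cells by 0.99 ± 0.11 and in syncytiotrophoblast-like cells by 0.50 ± 0.11 and lower in extravillous-like cells, at −1.69 ± 0.14. ANGPTL4 was higher in syncytiotrophoblast-like cells by 1.25 ± 0.15 and lower in cytotrophoblast-like cells, at −0.88 ± 0.16. Of the 5 genes of that list 1 was higher and 1 lower in cytotrophoblast-like cells, where 28.2% and 27.4% of all genes were, 2 and 2 in syncytiotrophoblast-like cells, beside 19.6% and 21.0%, and 0 and 1 in extravillous-like cells, beside 29.5% and 27.8%. Their medians were −0.15 in cytotrophoblast-like, −0.19 in syncytiotrophoblast-like and 0.32 in extravillous-like cells.

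The other X-linked and cancer-testis genes were compared in the same way. Of the 4 with an identifier, MAGED2, MAGED4B and BRDT were higher in extravillous-like cells by 2.44 ± 0.14, 1.41 ± 0.15 and 1.19 ± 0.22, where XAGE3 and PAGE4 were lower and 29.5% of all genes were higher. In cytotrophoblast-like cells MAGED2 was lower, at −1.63 ± 0.15. Of the 17 transcription factors, 11 were higher in syncytiotrophoblast-like cells, beside 19.6% of all genes, and 10 were lower in cytotrophoblast-like cells, beside 27.4%, HEY1 standing at 5.20 ± 0.23 and −2.84 ± 0.30.

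Single clusters within a subtype differed widely as a description. Among the Day 14 clusters, VGLL1 was at 575 to 641 CPM in the 6 cytotrophoblast-like clusters and at 197 to 398 CPM in the 8 extravillous-like ones. PPARG spanned 23.0 to 281 CPM over the 5 syncytiotrophoblast-like clusters and 25.6 to 282 CPM over the extravillous-like ones, and CCNE1 spanned 110 to 2276 CPM and 76.2 to 2310 CPM. Some clusters of both subtypes were thus below the highest PPARG level of endoderm-like cells, 36.1 CPM. PAGE4 was at 56.5 to 963 CPM in the extravillous-like clusters and at 1384 to 2672 CPM in the cytotrophoblast-like ones.

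Over the days of culture the wild-type trophoblast showed higher mean levels after Day 10 for each of the genes, but none passed the test. In cytotrophoblast-like cells alone the PPARG difference from Day 10 was −0.05 at Day 12 and −0.18 at Day 14. VGLL1, XAGE3, PAGE4 and CCNE1 each had their lowest level of all 11 libraries in the second wild-type Day 10 library, and the 2 Day 10 libraries lay far apart for XAGE3 and PAGE4. PPARG stayed within 167 to 256 CPM. From the wild-type Day 10 trophoblast clusters 40.8% of the cells had been set aside, a larger share than in any other group. The trophoblast-like cells kept there differed in their markers too. The 9 endoderm markers summed to 211 to 275 CPM in them against 3.37 to 36.5 CPM in the trophoblast-like cells of the other groups, the 6 extravillous markers to 259 to 364 CPM against 1046 to 3766 CPM and the 10 trophoblast markers to 6688 to 7560 CPM against 8917 to 16998 CPM. The part of these in the differences between days was not tested.

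By edgeR's test over 15074 genes, VGLL1 was at 0.94 ± 0.27 for Day 12 against Day 10 with adjusted p = 0.092, CCNE1 at 1.04 ± 0.31 with adjusted p = 0.096 and PAGE4 at 2.02 ± 0.76 with adjusted p = 0.17. For Day 14 against Day 10, CCNE1 was at 1.30 ± 0.31 with adjusted p = 0.034. It passed at 1.71 ± 0.25 with adjusted p = 0.0054 when the second wild-type Day 14 library was left out, and DESeq2 gave an adjusted p of 0.0016. PAGE4 was at 2.00 ± 0.76 and VGLL1 at 0.74 ± 0.27 for Day 14 against Day 10. In each of these comparisons 0 of the 5 genes passed and 3 had an unadjusted p under 0.05, while 0.318% of all genes passed in either direction for Day 12 and 1.78% for Day 14. With the batch as a block 21 genes in place of 48 passed for Day 12 and 164 in place of 268 for Day 14, and 0 of the 5 in both. DESeq2 called 0 of the 5 for Day 12 and 1 for Day 14.

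Between Day 12 and Day 14 the wild-type differences were −0.19 to 0.26, none of the 5 genes passed with edgeR or DESeq2 and none had an unadjusted p under 0.05, with 0% of all genes called by edgeR. In the mutants PPARG was at −0.55 ± 0.22 for Day 14 against Day 12 with adjusted p = 0.41, PAGE4 at 1.08, XAGE3 at 0.89, CCNE1 at −0.51 and VGLL1 at −0.45. None passed, 1 had an unadjusted p under 0.05, DESeq2 called none of them, and 0.00663% of all genes passed with edgeR. Of the 17 transcription factors, 1 was higher and 2 were lower at Day 14 than at Day 10 in wild type. From Day 10 to Day 14 CREM rose by 2.33 ± 0.31, GATA3 fell by 1.33 and CDX2 fell by 7.57 on the log2 scale, and FABP3 of the PPARG list fell by 4.35.

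**Figure D5:**
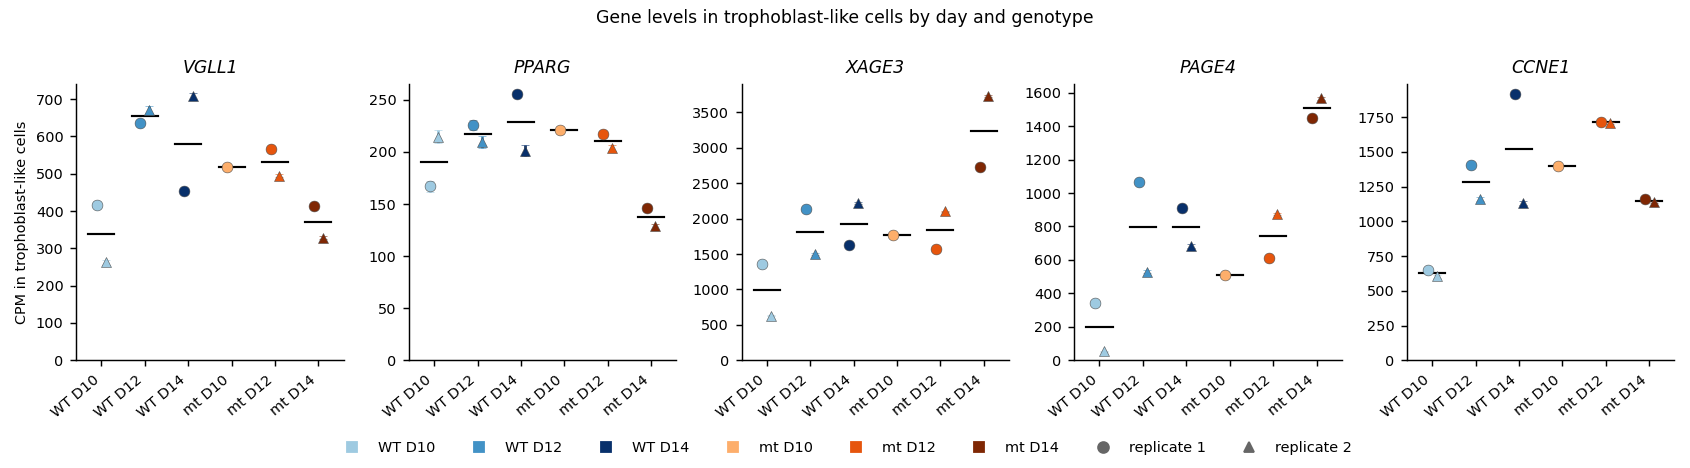
CPM of the 5 genes in the trophoblast-like cells of each library by genotype and day, on linear axes from 0. Points are libraries with exact counting intervals, and bars mark the mean of each group. The 2 mutant Day 14 libraries lie below the other groups for PPARG and above them for XAGE3 and PAGE4.

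The comparison of mutants with wild type asked whether these genes differ between genotypes in the trophoblast, outside the amnion that the study is about. None of the 5 genes passed in the trophoblast at any day. On counts simulated with an assumed spread, the Day 14 test recovered only 3.03% of log2 changes of 1 and 23.9% of those of 2. The changed genes were drawn from all genes tested, so these are not rates for the 5 genes. Not passing therefore does not show that a gene is unchanged. At Day 14 both mutant libraries lay below both wild-type libraries for VGLL1 and PPARG and above them for XAGE3 and PAGE4, but 46.2% of all genes also did not overlap between these pairs of libraries. At Day 12 VGLL1 and CCNE1 did not overlap, where 44.6% of all genes did not.

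At Day 14 the log2 difference of mutant against wild type was −0.74 ± 0.23 for PPARG with adjusted p = 0.22 in edgeR's test, −0.62 ± 0.27 for VGLL1 with adjusted p = 0.34, 0.78 ± 0.42 for XAGE3, 0.92 ± 0.74 for PAGE4 and −0.42 ± 0.31 for CCNE1. At an unadjusted p under 0.05 there were 2 of the 5 genes, and 0% of all genes passed the threshold. In cytotrophoblast-like cells alone, a comparison added after the data were seen, PPARG was at 240.4 and 219.8 CPM in wild type and at 119 and 112 CPM in the mutants, a difference of −1.0 ± 0.21 with an adjusted p of 0.094 from edgeR. There VGLL1 was at −0.09 ± 0.28, with levels that overlapped between the genotypes, and CCNE1 at −0.06 ± 0.23. XAGE3 was at 0.75 ± 0.50 and PAGE4 at 1.06 ± 0.84, and none of the 5 genes passed. In all trophoblast-like cells of Day 12 the 5 differences were within −0.36 and 0.35, none had an unadjusted p under 0.05 and 0.00663% of all genes passed. At Day 10, with 1 mutant library whose spread was taken from the other groups and with 40.8% of the wild-type trophoblast cells set aside, CCNE1 was at 1.14 ± 0.36 with adjusted p = 0.17, the only 1 with an unadjusted p under 0.05, and 0.0862% of all genes passed, 13 genes, or 0 with the batch as a block. DESeq2 called 0 of the 5 at each of the 3 days. The difference between the genotype effects at Day 14 and Day 12 was also tested, and none of the 5 genes had an unadjusted p under 0.05, PPARG being at −0.63 ± 0.32, and 0% of all genes passed. None of the genes of the 5 related lists passed for genotype in the trophoblast at any day.

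In amnion-like cells of Day 14 the genotype difference with the smallest adjusted p was that of XAGE3, which did not pass the test. XAGE3 was at 186 and 394 CPM in the mutants and at 11.4 and 2.5 CPM in wild type. PAGE4 was at 60.9 and 21.7 CPM against 3.2 and 3.8 CPM, and PPARG at 15.6 and 24.8 CPM against 5.5 and 2.5 CPM. VGLL1 was at 26.5 and 9.3 CPM against 6.8 and 3.8 CPM, whereas CCNE1, at 73.4 and 20.7 CPM, overlapped with wild type at 63.2 and 69.9 CPM.

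By edgeR's test over 9360 genes XAGE3 was at 5.21 ± 0.64 with adjusted p = 0.012, PAGE4 at 3.51 ± 0.60 with adjusted p = 0.031, PPARG at 2.23 ± 0.58 with adjusted p = 0.11, VGLL1 at 1.55 ± 0.60 with adjusted p = 0.24 and CCNE1 at −0.56 ± 0.46. That makes 0 of the 5 at a false discovery rate of 1%, where 0.0321% of all genes were higher and 0.0214% lower, and 4 had an unadjusted p under 0.05. DESeq2 called 1 of the 5, XAGE3. Leaving out the first or the second wild-type library gave 2 calls each, XAGE3 and PAGE4, and leaving out the first mutant library gave 1, XAGE3. With no filter on low counts 3 passed, XAGE3, PAGE4 and PPARG. With the batch as a block XAGE3 passed, at 5.05 ± 0.65 with adjusted p = 0.0038, and 32 genes in place of 5 were called. By batch number, XAGE3 was at 186 CPM in the mutant against 11.4 CPM in wild type in B1 and at 394 against 2.5 CPM in B2. The sample titles do not state that these are the same batches in both genotypes, so the block assumes it.

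Markers of several other cell types moved with this difference. The sum of the 9 markers of extraembryonic mesenchyme in these cells was 403 to 1047 CPM in the mutants, with 9 detected in each library, and 68.6 to 158 CPM in wild type, with at least 4 detected. The sum of the 10 trophoblast markers was 252 to 461 CPM in the mutants and 82.6 to 156 CPM in wild type, and CGA was at 259 and 79.6 CPM in the mutants and at 42.3 and 6.4 CPM in wild type. CDKN1C, also abundant in trophoblast, was higher in the mutants by 4.42 ± 0.49 with adjusted p = 0.0088. In mutant Day 14, 57.3% of the cells in amnion clusters had been set aside for leading genes of another class, against 3.13% in wild type. The cells set aside came from the first mutant library, where 81 of 261 were kept, while the second kept all 53. The free-RNA correction had removed 8.77% and 3.22% of the UMIs of the mutant Day 14 libraries and 2.98% and 0.457% of the wild-type ones. Their median UMIs per cell were 10916 and 23378 in the mutants and 47802.5 and 24720 in wild type. The part of these in the result was not tested.

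The XAGE3 transcripts in these cells were not confined to 1 cell. In the first mutant Day 14 library 119 UMIs were spread over 14 of 81 cells, with 33.6% in the highest cell, and the level without it was 127 CPM. In the second, 381 UMIs were spread over 17 of 53 cells, with 26.5% in the highest cell and 296 CPM without it. In wild type there were 25 UMIs in 10 of 58 cells, 14 of them in 1 cell, and 2 UMIs in 2 of 35 cells. Scrublet marked no amnion-like cell of Day 14, but in the second mutant library it marked only 0.0773% of 3882 cells in all. PPARG was spread over more cells, with 24 UMIs in 17 of 53 cells of the second mutant library.

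Across all 49 sums of a type and library, the genes with a symbol whose log2 level was most like that of each of the 5 were found by Pearson correlation over 1019 other genes, as a description. The sums of 1 library share its depth and free RNA. VGLL1 was closest to MBNL3 (r = 0.94), GCM1 (0.94) and FADS3 (0.93), and CCNE1 to EFHD2 (0.96), CDK7 (0.94) and GCM1 (0.89). XAGE3 was closest to VGLL1 (0.93), WIPI1 (0.91) and FADS3 (0.89), and PAGE4 to CD55 (0.89), XAGE3 (0.88) and VGLL1 (0.87). PPARG was closest to CTSL (0.92), ATP6V0C (0.91) and S100P (0.90), and among the other 4 genes to VGLL1 (0.88). Over the 11 trophoblast-like sums alone the pairs of the 5 genes ran from −0.54, for PPARG with XAGE3, to 0.94, for XAGE3 with PAGE4. VGLL1 was there at 0.28 with XAGE3, 0.42 with PAGE4, 0.41 with PPARG and 0.52 with CCNE1.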

How the data were processed

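Cells were profiled with 10x Genomics 3′ kits, and per the labels the reads were aligned and counted with Cell Ranger 3.1.0. The authors deposited 2 matrices: uncorrected UMI counts, and expected counts that SoupX had corrected for free RNA and that were whole numbers. SoupX removed 0.196% to 8.77% of the UMIs of a library. The expected counts were analysed here, in 33330 cells, and the deposited counts served as an alternative. The study's methods name the Ensembl annotation of Macaca_fascicularis_5.0 as the reference. Symbols came from the study's supplementary tables and matched 1020 identifiers.

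Cells were clustered per day in Seurat 5.3.0 (5000 features, 30 dimensions, resolution 0.8, UMAP seed 42), without the genes and lists described. Clusters were named from fixed markers by a rule that was set after the clusters were seen and before these genes' values by cluster were looked at. A name needed 3 detected markers, and a cluster with more markers of another class among its 10 leading genes was set aside. An epiblast-derived cluster with at least 2 trophoblast markers among its 10 leading genes was left unnamed, also where set-aside clusters were kept. Doublets were called with Scrublet in scanpy 1.11.5 and kept. UMIs were summed per library and type with at least 5 cells and tested with edgeR 4.0.16 (TMM scaling, genes kept by filterByExpr, two-sided quasi-likelihood F tests, a false discovery rate of 1% by Benjamini-Hochberg). DESeq2 1.42.0 was an alternative. Mutant Day 10 has 1 library, whose spread was taken from the other groups. Libraries held 36654977 to 164808415 UMIs. Shares of cells were compared after thinning to 10000 UMIs. Intervals are exact at 95% and cover counting error only. For a count of 0 the limit given is a set value of 3 counts, not the upper end of such an interval. The steps were tested on simulated counts first. With the spread assumed there, the Day 14 genotype test in trophoblast-like cells recovered 3.03% of log2 changes of 1, 23.9% of those of 2 and 56.7% of those of 3. In amnion-like cells it recovered 1.52%, 23.9% and 59.7%. A gene that did not pass may therefore still differ.

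The genes and lists were chosen with earlier results of these data known. Named were the 5 genes, up to 4 genes per list with the largest change among those past the threshold in a comparison, and the 3 genes with a symbol most correlated with each of the 5. CDK7 was named after its values were seen. Alternatives were DESeq2, no filter on low counts, the uncorrected counts, at least 20 cells per sum, resolution 0.4, no cells marked by Scrublet, each library left out, and the replicate number as a block. Replicate numbers follow the batch number that the labels give, B1 or B2. The sample titles do not state that a number is the same batch in both genotypes, so pairing by it is an assumption. Deviations of same-numbered libraries from their group means correlated at −0.30 to 0.26 over 10 pairs of trophoblast-like sums, with 1 above 0.1, and at −0.18 for the 1 pair of amnion-like sums. Keeping the clusters that had been set aside, and using cytotrophoblast-like cells alone, were added after the data were seen.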

Additional observations from a re-analysis of the deposited data

How the results depend on the processing

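The count of the 5 genes called stayed within 1.5 times the reported one under every alternative in 22 of 28 comparisons, leaving out the description of wild-type Day 14. Trophoblast-like against amnion-like cells gave 4 calls in place of 2 in wild-type Day 10 without the cells marked by Scrublet, and 2 to 3 in place of 5 in mutant Day 14 with 1 library left out, which leaves 1 library in that group. Amnion-like against other epiblast-derived cells gave 1 in place of 0 in wild-type Day 10 with no filter on low counts and in mutant Day 12 with the clusters that had been set aside kept. Wild-type Day 14 against Day 10 in trophoblast gave 1 in place of 0 with DESeq2 and 0 to 1 with 1 library left out. Mutant against wild type in Day 14 amnion-like cells gave 1 with DESeq2, 3 with no filter and 0 to 2 with 1 library left out, in place of 0. Leaving out the only mutant Day 10 library gives no value for its comparisons between types. Except for the effects of leaving out marked cells or libraries, the cause was not tested. In the wild-type Day 12 amnion-like sum of 8 cells, a count of 0 allows up to 14.4 CPM.

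With the replicate number, which is the batch, as a block, 1 of the 5 genes was called for the Day 14 amnion-like genotype difference, XAGE3 at 5.05, and the block changed no other call of the 5. Under the block PAGE4 was at 0.051 for wild-type Day 14 against Day 12 (−0.02 without it) and at 0.025 for mutant against wild type at Day 12 (−0.19 without it).

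Over all genes the counts depended on the tool and, for small sums, on the clusters. In trophoblast-like cells DESeq2 called 657 genes for the Day 10 genotypes (13 by edgeR, 59 with no filter, 26 with the set-aside clusters kept, 4 in cytotrophoblast-like cells alone, 0 with the block, 0 to 112 with 1 library left out), 135 at Day 12 (1), 279 at Day 14 (0) and 55 for their difference (0). It called 1151 for wild-type Day 12 against Day 10 (48, then 244 with no filter, 28 in cytotrophoblast-like cells, 21 with the block and 0 to 308 with 1 library left out), 1672 for Day 14 against Day 10 (268, then 580, 76, 164 and 0 to 608), 25 for Day 14 against Day 12 (0) and 177 for the mutant days (1). For the Day 14 amnion-like genotypes DESeq2 called 34 (5, then 373 with no filter, 2 with the uncorrected counts, without marked cells or with 20 cells per sum, 9 at resolution 0.4, 13 with the set-aside clusters kept, 32 with the block and 1 to 348 with 1 library left out). For amnion-like against other epiblast-derived cells it called 102, 18 and 282 at wild-type Days 10, 12 and 14 (41, 3 and 124 by edgeR) and 1012, 314 and 961 in the mutants (509, 143 and 620), and edgeR called 299 and 1302 at the later mutant days and 7 in wild-type Day 12 with the set-aside clusters kept, 83 in wild-type Day 10 without marked cells, 5 in wild-type Day 12 with no filter, and 83 in mutant Day 12 and 210 in wild-type Day 14 at resolution 0.4. With 1 library left out it called 18, 0 and 0 to 104 at wild-type Days 10, 12 and 14 and 17 and 33 to 130 at the later mutant days. Trophoblast-like against amnion-like cells gave 1345 and 838 with DESeq2 at wild-type Days 10 and 12 (886 and 529), and 1084 in wild-type Day 12, 2191 in wild-type Day 14 (3415) and 3530 in mutant Day 12 (2282) at resolution 0.4. With the set-aside clusters kept it gave 1260 in wild-type Day 12 and 3888 in mutant Day 12, and with 1 library left out 1246 to 2188 in wild-type Day 14 and 897 to 1976 in mutant Day 14 (3222). Trophoblast-like cells against the other types gave, with 1 library left out, 1767 to 1793 in wild-type Day 10 (3202), 1917 to 2090 in wild-type Day 12 (2921), 2033 to 3345 in wild-type Day 14 (4567), 2101 to 2311 in mutant Day 12 (4442) and 2129 to 2609 in mutant Day 14 (4652).

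Of the 56 values of the 5 genes that were tested and called, 10 lost the call under some alternative and none changed sign. A sign changed in 66 instances of values that had not been called, and none was called under the alternative. For amnion-like against other epiblast-derived cells without the cells marked by Scrublet, XAGE3 in wild-type Day 10 was at −1.25 (reported 5.04), PAGE4 at −8.27 (2.21) and XAGE3 in wild-type Day 14 at 0.44 (−0.22). With the set-aside clusters kept, wild-type Day 12 gave 0.18 for VGLL1 and 2.60 for PPARG, both of which had 0 UMIs in the reported sum, and −0.029 for CCNE1 (0.17), wild-type Day 14 gave −0.035 for VGLL1 (0.02) and mutant Day 12 gave 0.10 for CCNE1 (−0.29). With no filter CCNE1 in wild-type Day 12 was at −0.021 and VGLL1 in wild-type Day 14 at −0.062. The uncorrected counts gave −0.13 for VGLL1 and 0.038 for XAGE3 in wild-type Day 14, and at least 20 cells per sum gave −0.015 for VGLL1. At resolution 0.4 XAGE3 was at 1.04 in wild-type Day 14 and −0.037 in mutant Day 12 (2.75), and CCNE1 at −0.054 in mutant Day 14 (0.33). XAGE3 in wild-type Day 14 was at −1.26 to 0.045 with 1 library left out.

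PPARG in cytotrophoblast-like cells was at 0.016 with the uncorrected counts, 0.011 with the set-aside clusters kept and −0.045 to 0.063 with 1 library left out. In extravillous-like cells it was at −0.023, −0.075 and −0.16 to 0.052, and at −0.081 at resolution 0.4. In cytotrophoblast-like cells alone PPARG was at −0.046 for wild-type Day 12 against Day 10 (0.20), −0.18 for Day 14 against Day 10 (0.28), −0.14 for Day 14 against Day 12 (0.08) and −0.041 for mutant against wild type at Day 10 (0.20). There PAGE4 was at 0.73 and CCNE1 at −0.013 for wild-type Day 14 against Day 12, XAGE3 at 0.54 and PAGE4 at 0.72 for mutant against wild type at Day 12, and VGLL1 at 0.059 for the difference of the genotype effects (−0.26). With the set-aside clusters kept PPARG was at −0.0066 and PAGE4 at 0.083 for wild-type Day 14 against Day 12 and XAGE3 at 0.00075 for the Day 12 genotypes. With the uncorrected counts PAGE4 was at 0.0014 and XAGE3 at 0.00012 in these comparisons.

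With 1 library left out, wild-type Day 14 against Day 12 spanned −0.40 to 0.014 for VGLL1, −0.22 to 0.36 for PPARG, −0.26 to 0.47 for XAGE3, −0.50 to 0.74 for PAGE4 and −0.29 to 0.70 for CCNE1. PPARG spanned −0.0043 to 0.35 for Day 12 against Day 10 and −0.019 to 0.53 for Day 14 against Day 10. For mutant against wild type at Day 12 PPARG spanned −0.26 to 0.097, XAGE3 −0.36 to 0.39 and PAGE4 −0.67 to 0.59, and at Day 14 CCNE1 spanned −0.79 to 0.13 in trophoblast-like and −1.51 to 0.059 in amnion-like cells.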
